A study of Mus musculus with 24 samples.

Results

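Neural progenitor cells (NPC) of the Q111 Htt line were compared with NPC of the Q20 Htt line, 4 of the 24 RNA sequencing libraries of a mouse series, 2 libraries in each group. Both lines are heterozygous knock-ins of the mouse Htt gene (also called Hdh), one with 111 and the other with 20 CAG codons on the altered allele, and both groups received the same culture treatment. They come from an allelic series of mouse embryonic stem cells (mESC) that also holds lines with 50 and 92 CAG, and the series adds wild type (WT) and Htt knockout (KO) cells. The third length is 92 in the sample titles and 89 in the culture protocol. The stem cells were kept with leukemia inhibitory factor and serum on irradiated mouse embryonic fibroblasts, were turned into NPC in N2B27 medium, and were then passaged on laminin with FGF and EGF. The protocol tells the lines apart by allele only, and the labels do not say whether the 2 samples of a length are separate clones, differentiations or passages, so repeat length and line cannot be told apart.

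Huntingtin, the protein of Htt, is a large scaffold used in vesicle transport and in the orientation of dividing progenitors, and an expanded run of CAG codons in its first exon causes Huntington's disease. Neural progenitors of this kind divide under FGF and EGF and can give neurons, astrocytes and oligodendrocytes. During differentiation from stem cells they silence the pluripotency network around Pou5f1 and Nanog, and growth factor withdrawal lets them leave the cell cycle and express glial genes. The comparison asks what the longer repeat changes in progenitors, with the short repeat line as the reference.

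The altered stretch lies in exon 1 of Htt, on the plus strand of chromosome 5. The first 105 coding bases of the mouse reference (GRCm38, chr5:34761907-34762011) are shown because they hold the codons that the knock-in alleles lengthen. Capitals mark the run of 7 glutamine codons, codons 18 to 24, of which 6 are CAG and 1 is CAA.
Htt: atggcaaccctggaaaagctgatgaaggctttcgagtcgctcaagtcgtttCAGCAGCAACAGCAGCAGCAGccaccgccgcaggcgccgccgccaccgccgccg
The values used here count reads per gene and do not separate the 2 alleles. Htt stood at 156.8 and 155.0 CPM in the Q20 libraries and at 136.5 and 150.2 CPM in the Q111 libraries, where CPM is the deposited value, a read count divided by a scaled library size. Both Q111 values lay below both Q20 values by a small margin. The change was -0.12 on the log2(CPM + 1) scale used throughout (SE 0.14, limma adjusted p = 0.532), so a difference in total Htt was not detected; quantile normalization alone gave an adjusted p of 0.0451.

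Of the 13206 genes tested, 3743 passed limma at a Benjamini-Hochberg adjusted p under 0.05, which is 28.3% and serves as the background for each count below. Higher in Q111 were 1617 genes (12.2%), and lower were 2126 (16.1%). The falls were larger: the median log2 change was 0.94 among called rises and -1.31 among called falls, and an 8-fold change or more was seen in 30 rises and 142 falls. The libraries of both groups did not overlap for 78.2% of all tested genes, called or not, so that separation of 2 against 2 libraries says little about a single gene. Scaling all libraries to the same total instead shifted the median log2 change over all genes from 0.03 to -0.16 and split the calls into 908 rises and 2820 falls.

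The libraries compared held 72464779 and 84011328 recovered reads in Q20 and 76985911 and 73958639 in Q111. Between the 2 replicates of a line, log2 values differed with an SD across genes of 0.497 in Q20 and 0.486 in Q111. It was larger in WT (0.869) and KO (0.689), whose libraries enter the fit only through the shared estimate of spread. With the 4 libraries of both groups alone, 6712 genes passed; without 1 of these 4 libraries, 1569 (without Q111 replicate 2) to 1873 (without Q20 replicate 2) passed. Since nothing says how the replicates were made separate, p-values measure only the spread between these samples, which may be technical.

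**Figure D1:**
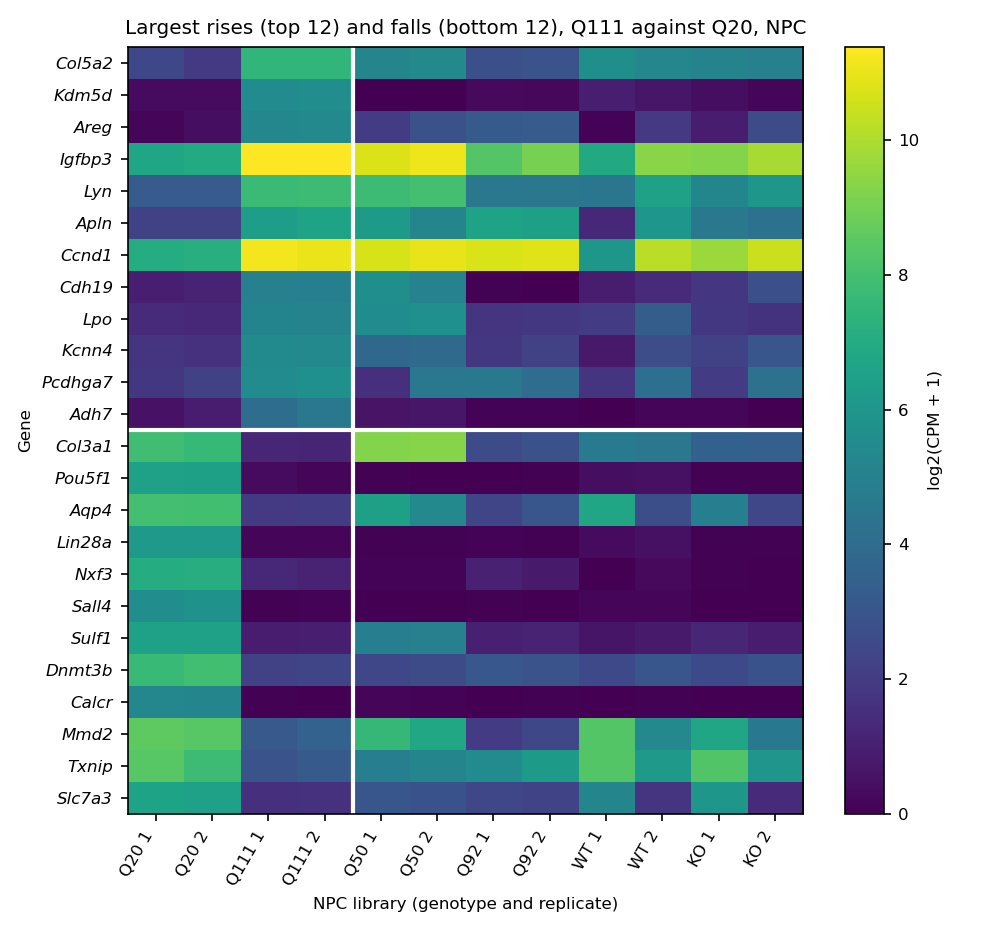
Expression of the 12 largest rises (upper rows) and 12 largest falls (lower rows) among called genes, as log2(CPM + 1) in each of the 12 NPC libraries (columns). The Q20 and Q111 libraries, left of the vertical line, differ in every row, and Pou5f1, Lin28a, Sall4 and Calcr are high in the Q20 libraries alone.

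Genes of the pluripotency network were among the largest falls. Pou5f1, the transcription factor that holds stem cells in the pluripotent state, stood at 90.05 and 87.4 CPM in Q20 and at 0.244 and 0.156 CPM in Q111. It fell by 6.23 on the log2 scale (SE 0.11, adjusted p = 6.54e-08). Both Q20 libraries were high, and every other NPC library lay at or below 0.405 CPM, the higher of the WT values. Lin28a, an RNA-binding protein that blocks let-7 maturation, stood at 70.8 and 69.1 CPM in Q20 and at 0.163 and 0.128 in Q111 (-5.95, SE 0.12, adjusted p = 6.54e-08). Sall4, a zinc finger factor of the same network, stood at 47.1 and 54.6 CPM in Q20, against 0.0406 and 0.0709 in Q111 (-5.61, SE 0.12). Nanog stood at 13 and 13.7 CPM in Q20, against 0.19 and 0.425 in Q111 (-3.46, SE 0.23, adjusted p = 3.09e-05).

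The bases upstream of Pou5f1 are shown because it had the largest called fall among the pluripotency genes. The 250 bases before its RefSeq start (GRCm38.p6, plus strand, chr17:35505782-35506031) hold a GC box, GGGCGG, and a nuclear receptor half-site, AGGTCA, both in capitals and searched on both strands.
Pou5f1: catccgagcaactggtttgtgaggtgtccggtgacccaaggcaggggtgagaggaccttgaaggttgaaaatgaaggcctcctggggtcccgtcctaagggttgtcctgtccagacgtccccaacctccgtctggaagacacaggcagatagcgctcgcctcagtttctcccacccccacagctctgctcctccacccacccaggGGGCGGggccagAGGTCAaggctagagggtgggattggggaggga
Such letters are common: 35.4% of the same windows over 27025 genes hold the first and 15.8% the second.

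The list of pluripotency genes had 16 entries, of which 10 were in the table and 7 passed the filter on low values. Of these 7, 4 fell, 1 rose and 2 did not pass. The 4 that fell passed the filter only through the Q20 libraries, so the median of the tested members is set by the filter and is not read; without a filter it was -0.50 over the 10 genes, of which 6 fell and 1 rose. The sum over the 10 genes was 226.3 and 230.4 CPM in Q20, 12.6 and 12.0 in Q111, and 5.96 to 27.1 in the other 8 NPC libraries. Klf4, a reprogramming factor with roles in many tissues, was the exception, at 3.19 and 3.83 CPM in Q20 and 10.9 and 10.2 in Q111 (1.36, SE 0.37, adjusted p = 0.0274). Its call was lost without any 1 of the 4 libraries (adjusted p from 0.0858 to 0.133). Pou5f1 and Nanog have processed copies in the genome, and how reads shared with copies were counted is not given in the sources used here. Esrrb, Tfcp2l1 and Tdgf1 stood below 1 CPM in all 4 libraries.

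Of 3 further genes expressed in stem cells, named among the largest falls or in another list, each was high in the Q20 libraries. Dnmt3b, the de novo DNA methyltransferase of the early embryo, stood at 210.1 and 241.4 CPM in Q20 and at 3.62 and 4.18 in Q111 (-5.53, SE 0.24, adjusted p = 3.86e-06). Epcam, an epithelial adhesion molecule also found on stem cells, stood at 22.1 and 23.5 CPM in Q20 and at 0.108 and 0.184 in Q111 (-4.38, SE 0.13). Cdh1, E-cadherin, stood at 12.9 CPM in both Q20 libraries and at 0 in both Q111 libraries. Measured against the limit that a count of 0 allows (3 reads per library, 0.0416 CPM), Cdh1 was at least 310-fold lower. In the mESC libraries of the same lines these genes were expressed: Pou5f1 stood at 325.9 and 433.0 CPM in Q20 and 279.7 and 455.2 in Q111, and Cdh1 at 494.3 and 500.4 in Q20 and 426.3 and 428.7 in Q111. The tables of both cell types were scaled separately, so these levels stand side by side without a test. In bulk RNA, more cells of a type and more RNA per cell cannot be told apart, and the part of residual stem cells in the Q20 values was not tested.

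**Figure D2:**
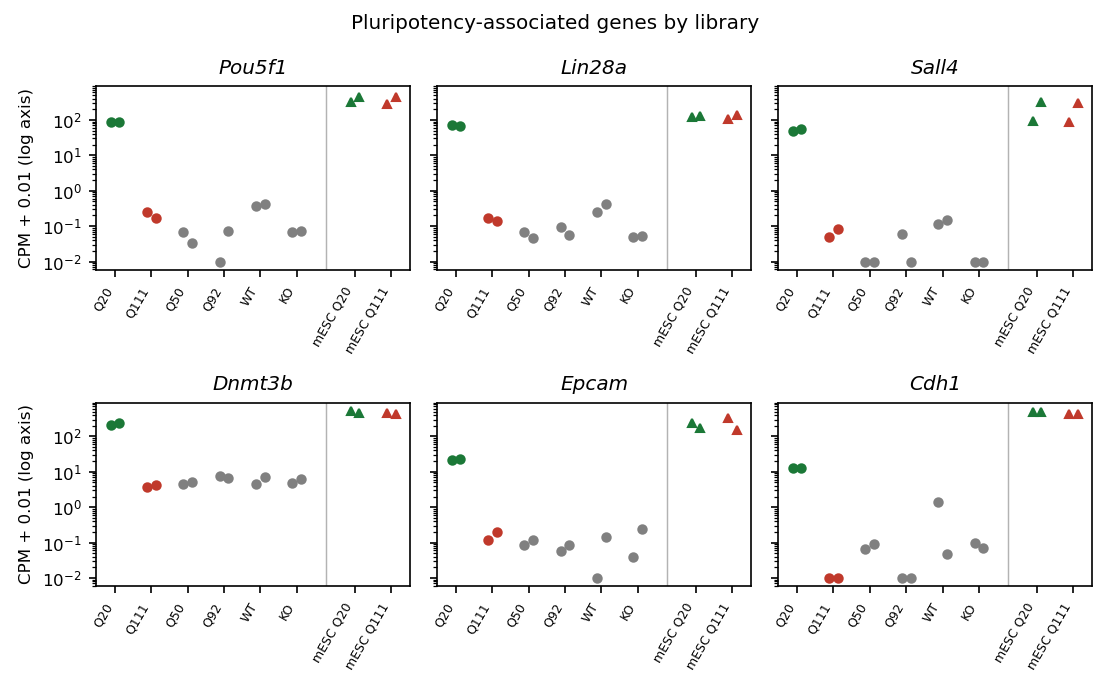
CPM (with 0.01 added, log axis) of 6 pluripotency-associated genes in each NPC library (circles, 2 per genotype) and in the mESC libraries of Q20 and Q111 (triangles); green is Q20, red is Q111 and grey the other genotypes. In NPC the Q20 libraries stand far above the 10 others for each of the 6 genes.

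The 12 largest rises contained growth factor signals and matrix genes. Col5a2, a chain of fibrillar type V collagen, stood at 4.47 and 2.87 CPM in Q20 and at 179 and 181.1 in Q111, a 49-fold difference (5.30, SE 0.21, adjusted p = 2.68e-06). Igfbp3, a carrier of insulin-like growth factors, rose from 103.9 and 122.5 CPM to 2622 and 2672 (4.54, SE 0.66, adjusted p = 0.00182). Areg, amphiregulin, a ligand of the EGF receptor, stood at 0.137 and 0.322 CPM in Q20 and at 37.3 and 40.2 in Q111 (5.02, SE 0.66, adjusted p = 0.00107). The Q111 replicates lay close together and the low Q20 values of Col5a2 and Areg less so, and no Q20 library came near a Q111 library for these 3 genes.

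Lyn, a kinase of the Src family, rose from 8.63 and 8.69 CPM to 217.9 and 223.2 (4.52, SE 0.55, adjusted p = 0.000715). Ccnd1, cyclin D1, which drives progenitors through G1, rose 16.4-fold, from 130.2 and 140.3 CPM to 2298 and 2128 (4.02, SE 1.05, adjusted p = 0.0247). In the WT libraries Ccnd1 stood at 63.4 and 1167 CPM, so the 2 WT replicates differed by more than the 2 lines. Apln, the ligand of the apelin receptor, rose from 3.60 and 3.66 CPM to 81.8 and 95.8 (4.27, SE 1.19, adjusted p = 0.031). The remaining rises were Cdh19 (a cadherin; 3.88), Lpo (lactoperoxidase; 3.75), Kcnn4 (a calcium-activated potassium channel; 3.66), Pcdhga7 (a gamma protocadherin; 3.59) and Adh7 (an alcohol dehydrogenase that can act on retinol; 3.57). Pcdhga7 shares its last exons with other members of its cluster, so its reads are uncertain. The calls of Ccnd1, Apln and Pcdhga7 were lost without any 1 of the 4 libraries (adjusted p from 0.0934 to 0.174), and that of Pcdhga7 also with edgeR (0.0627).

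Kdm5d, a histone H3 lysine demethylase gene of the Y chromosome, stood at 0.273 and 0.257 CPM in Q20 and at 43.6 and 46.8 CPM in Q111 (5.19, SE 0.14, adjusted p = 3.34e-07). The other 8 NPC libraries lay between 0 and 0.963 CPM. Other Y genes did not share this pattern: Uty was 60.3 and 72.5 CPM in Q20 and 40.5 and 44.7 in Q111, and Ddx3y was 72.3 and 88.7 against 56.9 and 72.1. Neither Uty (adjusted p = 0.0864) nor Ddx3y (adjusted p = 0.207) passed the test. In mESC, Kdm5d stood at 3.93 and 2.25 CPM in Q20 and at 3.84 and 2.46 in Q111.

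Among the other largest falls, Col3a1, the chain of type III collagen, stood at 239.8 and 194.0 CPM in Q20 and at 1.31 and 1.28 in Q111, 168-fold lower (-6.56, SE 0.16, adjusted p = 1.9e-07). Col3a1 and Col5a2 are neighbours on chromosome 1, with 24614 bases between them and opposite strands, so genes that lie tail to tail moved in opposite directions. Nxf3, of the mRNA export factor family, stood at 132.3 and 136 CPM in Q20 and at 1.49 and 1.16 in Q111 (-5.86, SE 0.16). Sulf1, which trims sulfate from heparan chains at the cell surface, stood at 89.98 and 90.7 CPM in Q20 and at 0.853 and 0.95 in Q111 (-5.59, SE 0.18). Calcr, the calcitonin receptor, stood at 38.1 and 35.2 CPM in Q20 and at 0.0406 and 0.0142 in Q111 (-5.20, SE 0.11).

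A second set of large falls was also uneven between the WT replicates. Txnip, a thioredoxin-binding protein that restrains glucose uptake, stood at 344.6 and 223.2 CPM in Q20 and at 6.51 and 8.24 in Q111 (-5.06, SE 0.85, adjusted p = 0.00369), and at 325.7 and 67.8 in WT. Mmd2 fell from 379.3 and 344.4 CPM to 8.10 and 10.9 (-5.12, SE 0.94), with 318.3 and 39.5 in WT. Slc7a3, a transporter of cationic amino acids, fell from 95.2 and 89.6 CPM to 1.86 and 2.06 (-4.98, SE 1.42, adjusted p = 0.0333), with 35.4 and 2.39 in WT. For all 3 genes WT replicate 1 was the higher of the WT libraries, and WT replicate 2 lay between the Q111 and the Q20 values. The call of Slc7a3 was lost without any 1 of the 4 libraries (adjusted p from 0.117 to 0.13).

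The cells were checked against markers of neural cell types. Of 21 markers of progenitors and radial glia in the table, 4 rose, 2 fell and 15 did not pass (2 or 3 rises and 1 fall passed without any 1 library), and the median log2 change was -0.09. Sox2 was not analysed here. Vim, the intermediate filament vimentin, rose from 906.8 and 926.3 CPM to 2166 and 2164 (1.24, SE 0.17, adjusted p = 0.00137). Nes, nestin, was at 353.5 and 392.6 CPM in Q20 and at 813.7 and 802.9 in Q111 (1.12, SE 0.41, adjusted p = 0.0739). Fabp7, the lipid carrier of radial glia, was at 1194 and 1266 CPM in Q20 and 1222 and 1539 in Q111 (adjusted p = 0.737), so high progenitor markers were present in both lines. Olig2, a factor of ventral and oligodendrocyte progenitors, rose from 31.2 and 60.5 CPM to 217.1 and 644.3 (3.08, SE 0.66, adjusted p = 0.0108), with unequal replicates in both lines. Msi1, an RNA-binding protein of stem cells, fell from 37.1 and 31.5 to 10.6 and 15.2 CPM (-1.36, SE 0.35, adjusted p = 0.023). The Msi1 call was lost without any 1 of the 4 libraries (up to 0.133), and that of Olig2 without Q111 replicate 2 or Q20 replicate 1 (up to 0.08).

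Astrocyte markers were lower in Q111 as a group. Of 21 tested, 13 fell, none rose and 8 did not pass, with a median log2 change of -1.62; without any 1 library 6 to 8 of the falls passed. Their summed level was 8786 and 7977 CPM in Q20 and 1967 and 1962 in Q111. Aqp4, the water channel of astrocyte endfeet, stood at 252.9 and 247.3 CPM in Q20 and at 2.80 and 2.92 in Q111 (-6.02, SE 1.20, adjusted p = 0.0081). Aldoc, the glial aldolase, fell from 1244 and 1091 CPM to 102.2 and 97.4 (-3.53, SE 0.17, adjusted p = 5.4e-06). Glul, glutamine synthetase, fell from 1443 and 1450 CPM to 136.6 and 221.4 (-3.05, SE 0.35), and Slc1a2, the main glutamate transporter, from 515.5 and 439.7 to 35.4 and 37.4 (-3.67, SE 0.75). Apoe fell from 975.8 and 820.3 CPM to 46.7 and 43.8 (-4.28, SE 1.09, adjusted p = 0.0225), a call lost without any 1 library (0.0835 to 0.106), and that of Slc1a2 passed without Q20 replicate 2 alone (0.0437 to 0.0578). Gfap, the astrocyte filament, stood at 43.1 and 27.8 CPM in Q20 and at 2.82 and 2.44 in Q111 (-3.30, SE 0.52). Gja1, the gap junction protein connexin 43, had the lowest log2 change of the list (-6.33, SE 2.36), yet did not pass (adjusted p = 0.0763).

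The WT libraries summed to 7035 and 3940 CPM over these astrocyte markers and the KO libraries to 5477 and 3005. Q92, at 1715 and 2025 CPM, was the group nearest to Q111. So the Q111 sums lay below those of the WT, KO and Q50 libraries, while the Q20 sums lay above all 10 others.

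**Figure D3:**
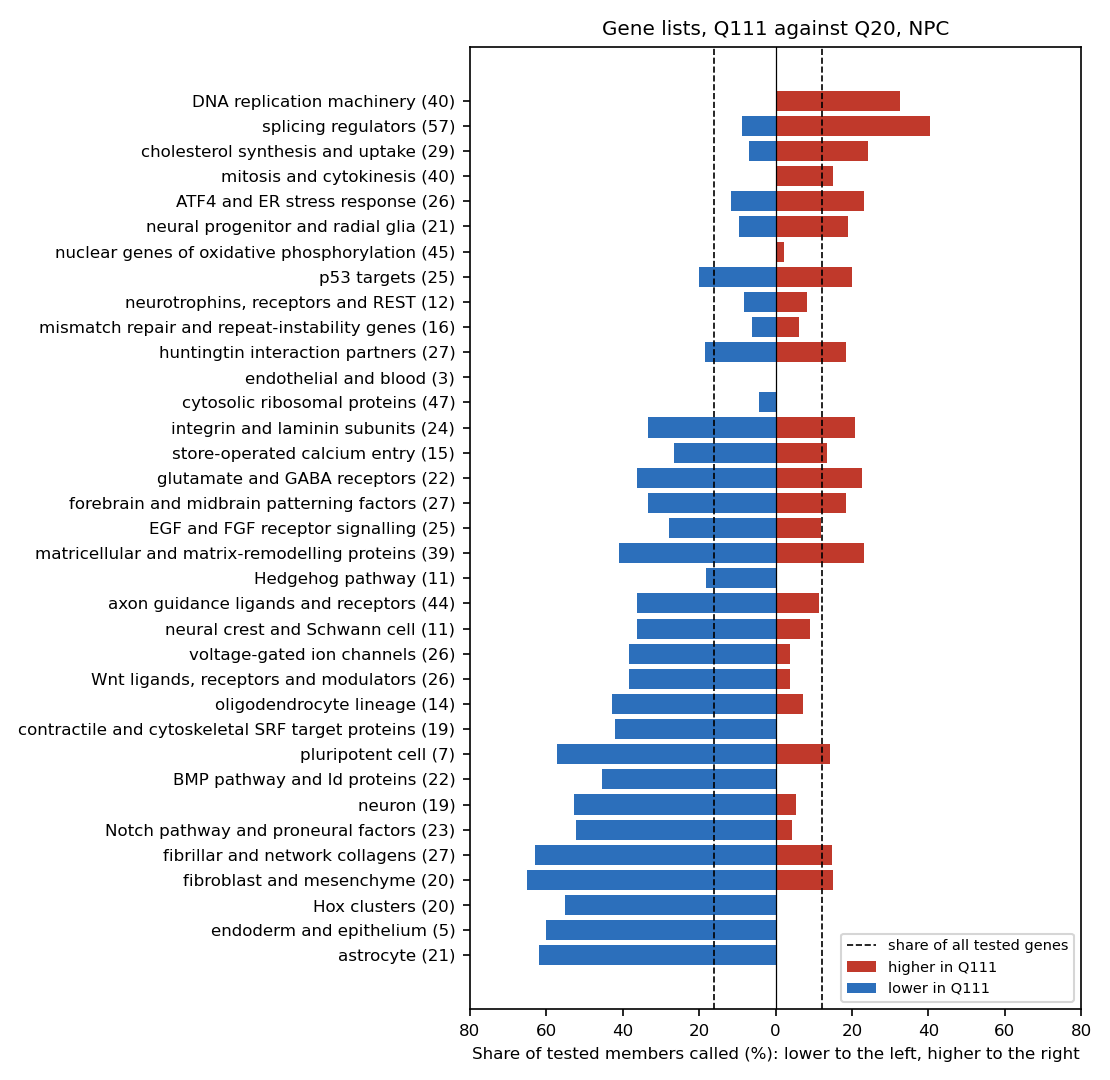
Share of the tested members of each of the 35 gene lists that were called higher (red, right) or lower (blue, left) in Q111; the number tested is in parentheses, and dashed lines mark the shares over all tested genes (12.2% higher, 16.1% lower). Fibroblast, collagen, astrocyte and Hox lists extend far to the left, and splicing regulators and DNA replication genes furthest to the right.

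Oligodendrocyte lineage markers also leaned downward, with 6 falls and 1 rise among 14 tested and a median of -1.02; without any 1 library 3 or 4 falls passed. Gpr17, a receptor of committed precursors, stood at 545.7 and 488.6 CPM in Q20 and at 53.7 and 7.37 in Q111 (-4.60, SE 1.10, adjusted p = 0.0175; 0.0161 to 0.111 without 1 library, lost except without Q111 replicate 1). Cspg4, the NG2 proteoglycan of early precursors, moved the other way, from 5.17 and 4.26 CPM to 39 and 39.9 (2.83, SE 0.23, adjusted p = 8.91e-05). Neuron markers held 10 falls and 1 rise among 19 tested (median -1.11, and -0.63 over 23 without a filter). Without any 1 library 6 to 9 of the falls passed, and with a pseudocount of 5 the median was -0.47. Stmn2, a microtubule regulator of growing axons, fell from 103.1 and 128.2 CPM to 5.51 and 5.25 (-4.18, SE 0.16), and Dcx, doublecortin of migrating neuroblasts, from 38.6 and 52.2 to 1.18 and 2.52 (-4.05, SE 0.35). Tubb3, the neuronal tubulin, stood at 32.6 and 120.5 CPM in Q20 and at 11.2 and 7.95 in Q111 (-2.61, SE 0.55, adjusted p = 0.0107; 0.0715 without Q111 replicate 2). Gap43, a growth cone protein, rose from 52.05 and 51.4 CPM to 337.9 and 335.6 (2.68, SE 0.36). Stmn2 lay at or below 0.356 CPM in the other 8 NPC libraries, so both compared lines stood above them, Q20 far more. Summed over the 23 neuron markers in the table, the level was 950.5 and 1125 CPM in Q20 and 1154 and 1133 in Q111. In the other NPC libraries it was 1103 to 1760. Map2, which did not pass, gave most of each sum, at 599.2 and 646.3 CPM in Q20 and 732.3 and 713.5 in Q111. Together with the rise of Gap43 it hides the falls of the other markers, so the sum does not describe them.

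Cell division genes leaned upward throughout. All 40 genes of the DNA replication machinery had a positive log2 change, with a median of 1.43, but 13 passed (32.5%, beside 28.3% of all genes), and all 13 were rises. Their summed level was 3245 and 3327 CPM in Q20 and 9019 and 9113 in Q111. Rrm2, the regulated subunit of ribonucleotide reductase, rose from 81.5 and 87.4 CPM to 536.3 and 662.8 (2.81, SE 0.69, adjusted p = 0.0197). Pcna, the sliding clamp of the replication fork, rose from 149.2 and 154.8 CPM to 571.2 and 569.7 (1.90, SE 0.58, adjusted p = 0.0418). Pola1, the catalytic subunit of the primase-bound polymerase, rose from 54.8 and 63.1 CPM to 233.9 and 242.1 (2.00, SE 0.43, adjusted p = 0.0112). The helicase subunit Mcm5, at 190.1 and 192.2 CPM against 652.7 and 594.8, did not pass (1.70, SE 0.60, adjusted p = 0.0664).

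All 40 genes of mitosis and cytokinesis also had a positive change, with a median of 1.07, and 6 passed, all as rises. Prc1, which bundles the central spindle, rose from 145.2 and 139.1 CPM to 399.5 and 374.2 (1.44, SE 0.37, adjusted p = 0.0224). Iqgap3, a scaffold of dividing cells, rose from 38.1 and 36.5 CPM to 113.9 and 109.8 (1.56, SE 0.43, adjusted p = 0.0293). Mki67 stood at 501 and 554.2 CPM in Q20 and at 1530 and 1690 in Q111 (1.61, SE 0.56, adjusted p = 0.0647). The number of calls depended on the libraries that set the spread: with the libraries of both groups alone, 38 replication and 39 mitosis genes passed, and without any 1 of the 4 libraries at most 1 replication gene and no mitosis gene did. Without 1 library, Rrm2, Pcna, Prc1 and Iqgap3 had adjusted p-values from 0.074 to 0.153 and Pola1 from 0.0483 to 0.0698, passing without Q20 replicate 2 alone. Pcna was also lost under scaling to equal totals (0.0543) and quantile normalization (0.0558).

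Promoters of Pola1 and Prc1 are shown because members of these lists moved together. Each line gives the 250 bases before the RefSeq start in GRCm38.p6, Pola1 from the minus strand of chrX:93632156-93632405 and Prc1 from the plus strand of chr7:80294201-80294450. Capitals mark an E2F motif (TTTGGCGC, here on the reverse strand) in Pola1 and a CCAAT box in Prc1.
Pola1: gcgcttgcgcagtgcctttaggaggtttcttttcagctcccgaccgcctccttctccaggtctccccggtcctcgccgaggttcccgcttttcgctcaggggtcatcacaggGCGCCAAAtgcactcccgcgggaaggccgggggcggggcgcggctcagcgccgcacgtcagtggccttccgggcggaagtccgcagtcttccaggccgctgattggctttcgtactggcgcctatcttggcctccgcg
Prc1: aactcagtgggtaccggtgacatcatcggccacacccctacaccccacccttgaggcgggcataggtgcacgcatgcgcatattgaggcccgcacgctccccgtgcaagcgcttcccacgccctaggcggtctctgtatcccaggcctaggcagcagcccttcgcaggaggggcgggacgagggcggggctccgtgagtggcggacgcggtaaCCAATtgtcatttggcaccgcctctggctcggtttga
E2F letters (TTTCCCGC or TTTGGCGC, both strands) were in 6 of 32 replication genes with such a window (18.8%) and in none of 35 mitosis genes, against 1.51% of 27025 genes. A CCAAT box was in 20 of 32 replication genes (62.5%) and 25 of 35 mitosis genes (71.4%), against 37.5% of all. The letters TTTGAA of the cell cycle homology region were in 10 of 35 mitosis genes (28.6%) and 18.3% of all. These matches describe letters, not bound sites.

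The same genes differed between replicates of other genotypes. In the WT libraries, replicate 2 stood above replicate 1 for 39 of 40 replication genes and 40 of 40 mitosis genes, with median log2 differences of 1.79 and 1.38, and in KO for 39 and 40 (1.18 and 1.33). For astrocyte markers, WT replicate 2 was the higher for 3 of 21 and KO replicate 2 for 0 of 21. Over all tested genes, the log2 difference of WT replicate 2 and 1 went with the change between Q111 and Q20 (Pearson's r = 0.437, Spearman's rho = 0.52, 13206 genes), and that of KO with r = 0.351. In Q50 and Q92, r was 0.066 and -0.082. These are descriptions across genes, which are not independent replicates, and all libraries share 1 scaling. Of the genes called higher in Q111, 79.1% were higher in WT replicate 2 than in replicate 1 (52.4% of all genes), and of those called lower, 72.4% were lower (47.5% of all genes). The WT and KO libraries do not enter the difference between Q111 and Q20, and the part of any state they share in it was not tested.

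Not every group followed that difference. The fibroblast list had a median of -1.33 between the lines and -0.05 between the WT replicates, and the Hox list -1.41 and 0.11. Col5a2, Kdm5d and Pou5f1 moved by -0.39, -0.27 and 0.06 between the WT replicates.

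**Figure D4:**
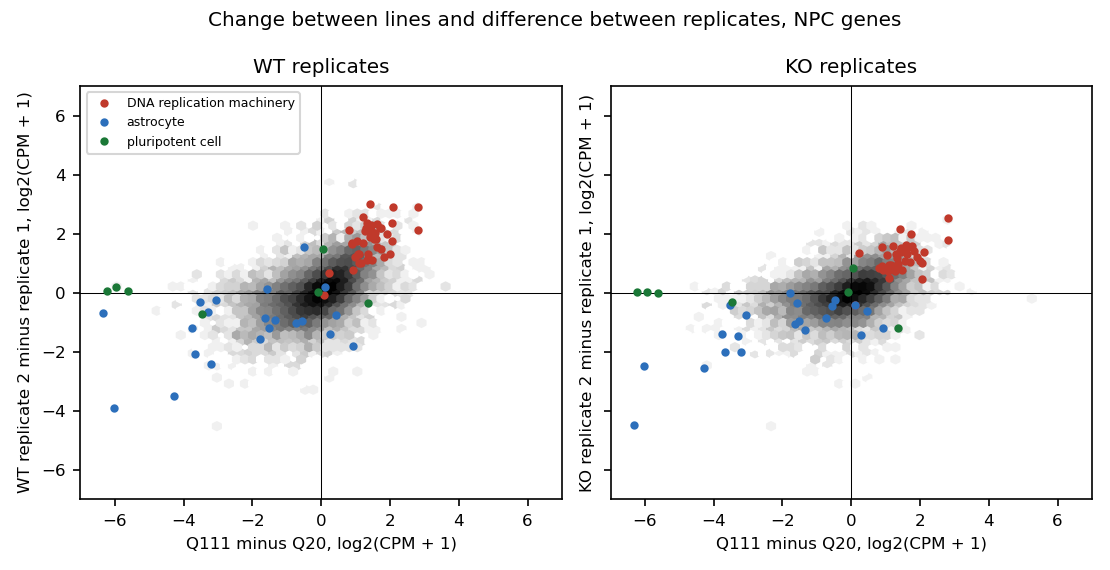
Log2 change between Q111 and Q20 (horizontal) against the log2 difference of replicate 2 and replicate 1 (vertical) in WT (left) and KO (right), for NPC genes; grey shading is the density of all 13206 tested genes on a log scale. DNA replication genes (red) lie to the upper right and most astrocyte markers (blue) to the lower left, while Pou5f1, Sall4 and Lin28a among the pluripotency genes (green) lie far left and near 0 on the vertical axis.

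Matrix genes changed in both directions. Of 27 collagen chains tested, 17 fell and 4 rose (77.8% called), with a median of -0.99, and 12 to 14 of the falls passed without any 1 library. Col1a2, a chain of type I collagen, fell from 33.1 and 25.4 CPM to 0.433 and 0.496 (-4.36, SE 0.17), and Col2a1, the cartilage type that is also made by early neuroepithelium, from 36.6 and 30.2 to 0.718 and 0.638 (-4.35, SE 0.35). Col4a6, a basement membrane chain, rose from 9.33 and 8.23 CPM to 105.0 and 108.8 (3.47, SE 0.17, adjusted p = 7.3e-06), and Col12a1 rose from 10.7 and 10.9 to 45.9 and 51.5 (2.07, SE 0.22). The summed level of the list was 1270 and 1117 CPM in Q20 and 1039 and 1023 in Q111, close together beside the changes of single chains.

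Fibroblasts, which the feeder layer of the stem cells could contribute, share many of these genes. Of 20 tested fibroblast and mesenchyme markers 13 fell and 3 rose (9 and 1 or 2 without any 1 library), and Pdgfrb, a receptor of mesenchymal and mural cells, went from 11.8 and 10.9 CPM to 0.23 and 0.156 (-3.37, SE 0.17). The defining fibroblast genes Dcn and Lum were low in Q20, at 2.40 and 2.28 and at 4.86 and 3.52 CPM, and were lower in Q111, at 0.176 and 0.0992 and at 0.0406 and 0.0709. The Dcn call was lost without any 1 library (0.101 to 0.121) and under quantile normalization (0.0929). The summed level of all 24 markers was 763.1 and 653.1 CPM in Q20, 812.4 and 831.3 in Q111 and 359.3 to 1612 in the other libraries. Most of the Q111 sum came from the 3 rises, Fbln2, Col5a2 and Fn1, so it does not describe the 13 falls. Fbln2 stood at 228.4 and 201.2 CPM in Q20 and at 452.0 and 443.1 in Q111. Among the falls, Col3a1 went from 239.8 and 194.0 CPM to 1.31 and 1.28. The part of fibroblasts in the matrix result was not tested.

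Of 39 tested matricellular and remodelling proteins, 16 fell and 9 rose (12 or 13 and 4 or 5 without any 1 library). Timp3, a matrix-bound inhibitor of metalloproteinases, fell from 352.1 and 351.8 CPM to 30.2 and 32.7 (-3.45, SE 0.64), and its relative Timp2 fell from 88.4 and 82.6 to 9.61 and 8.48 (-3.11, SE 0.19). Timp1 of the same family rose, from 5.85 and 3.41 CPM to 26.4 and 25.9 (2.30, SE 0.43). Mmp15, a membrane-bound metalloproteinase, rose from 89.5 and 64.4 CPM to 600.2 and 578.6 (2.94, SE 0.31, adjusted p = 0.00031).

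Integrins, which bind cells to matrix such as the laminin coat of the dishes, were listed together with laminin subunits. The list split 5 rises to 8 falls of 24 tested, with a median of -0.01 that changed sign under other settings. Without any 1 library 2 or 3 rises and 4 or 5 falls passed. Lama4 rose from 7.75 and 6.48 CPM to 41.3 in both libraries (2.39, SE 0.28), while Lama1 fell from 34.2 and 31.2 to 2.40 and 2.45 (-3.30, SE 0.25). Itgb1, the common beta chain, rose from 710.9 and 757.9 to 1503 and 1498 CPM (1.03, SE 0.13), and Itga3 fell from 8.80 and 8.19 to 0.23 and 0.199 (-2.97, SE 0.16). Itga4 rose from 3.99 and 4.74 CPM to 31.9 and 34.0 (2.67, SE 0.64, adjusted p = 0.0182), a call lost without any 1 library (0.0709 to 0.0948). Of 19 contractile and cytoskeletal proteins 8 fell and none rose, among them Des, desmin, from 11.05 and 8.66 CPM to 0.23 and 0 (-3.28, SE 0.20), and Myl9 from 12.6 and 11.3 to 0.677 and 1.11 (-2.78, SE 0.22).

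The signalling lists leaned downward for 3 developmental pathways. In the Notch list 12 of 23 tested genes fell and 1 rose, with a median of -1.01. Replicates of other genotypes also differed in this list. The median log2 difference of replicate 2 and replicate 1 was -0.84 in WT and -0.47 in KO. Among ligands, Dll3 fell from 87.4 and 79.7 CPM to 9.31 and 6.78 (-3.24, SE 0.45, adjusted p = 0.00144), and Dll1, Dll4, Jag1 and Jag2 passed as falls as well. Of the receptors, Notch3 fell and Notch1 and Notch2 did not pass. The target gene Hey2 fell from 12.0 and 10.1 CPM to 0.46 and 0.539 (-3.00, SE 0.74, adjusted p = 0.0197; 0.0744 to 0.0991 without 1 library), and Hes5, another target, was at 64.1 and 37.3 against 4.47 and 10.05 CPM (adjusted p = 0.0802). Without any 1 library 5 or 6 falls of the list passed. Dll1, Dll4, Jag1 and Notch3 were lost each time (0.0946 to 0.159), Dll1 with edgeR (0.0507) and Dll4 under quantile normalization (0.174).

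The BMP list held 10 falls and no rise among 22 tested (median -0.79), and 6 or 7 falls passed without any 1 library. Bmp7, a secreted ligand, fell from 11.9 and 10.7 CPM to 0.257 and 0.0992 (-3.39, SE 0.53), and Bambi, a decoy receptor, from 29.2 and 29.3 to 7.68 and 7.51 (-1.82, SE 0.36). In the Wnt list 10 of 26 tested genes fell and 1 rose (median -0.72), with 5 or 6 falls passing without any 1 library. Sfrp1, a secreted Wnt antagonist, fell from 101.5 and 124.2 CPM to 2.88 and 3.35 (-4.79, SE 0.19, adjusted p = 2.68e-06), and the secreted modulator Dkk3 from 20 and 19.4 to 2.07 and 1.60 (-2.87, SE 0.19). Wnt7b rose from 29.2 and 33.4 CPM to 134.8 and 118.1 (1.98, SE 0.57, adjusted p = 0.0341), and this call was lost without any 1 library (0.109 to 0.144) and under scaling to equal totals (0.0521). Hedgehog genes held 2 falls among 11 tested.

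Receptors for the growth factors of the medium moved apart. Egfr rose from 312.6 and 329.4 CPM to 953.6 and 963.3 (1.58, SE 0.39, adjusted p = 0.0195), and Fgfr1 from 127 and 126 to 231.8 and 222.5 (0.84, SE 0.18, adjusted p = 0.0114). Fgfr3 fell from 256.2 and 197.4 CPM to 14.4 and 17.0 (-3.76, SE 0.49), and Fgfr2 from 21.6 and 20.8 to 2.60 and 2.52 (-2.64, SE 0.25). The annotation of Fgfr2 overlaps 36 other genes on its strand, so its reads are uncertain. The falls of Fgfr2 and Fgfr3 passed without each library in turn, while the rises of Egfr and Fgfr1 did not (0.0575 to 0.0967), and that of Egfr was lost under quantile normalization (0.0528). In the whole list, 3 genes rose and 7 fell of 25 tested (0 to 2 and 4 or 5 without any 1 library).

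Position along the body axis is encoded by Hox genes, and NPC of this protocol expressed them at low levels. Of 30 listed genes 20 were tested; 11 fell, none rose and all 20 had a negative change (median -1.41). At these low levels the size depended on the pseudocount: with 5 the median was -0.43 and 7 fell, and with 0.1 it was -3.67 and 15 fell. Without any 1 library 7 or 8 falls passed. Hoxb4 stood at 6.80 and 8.45 CPM in Q20 and at 0.0406 and 0 in Q111 (-3.07, SE 0.35, adjusted p = 0.000478), and Hoxa2 at 22.2 and 10.3 against 1.11 and 0.992 (-2.98, SE 0.38). Over the 24 genes in the table the Q20 sums of 71.8 and 71.2 CPM lay near those of WT, 83.1 and 75.0, and the Q111 sums of 2.37 and 2.18 were below all other libraries (19.4 to 237.4). The forebrain and midbrain factors split 5 rises to 9 falls of 27 (2 or 3 and 5 to 7 without any 1 library). En2, a midbrain-hindbrain boundary factor, rose from 3.63 and 2.56 CPM to 19.05 and 21.7 (2.39, SE 0.22). Otx2 fell from 14.8 and 16.5 CPM to 4.96 and 8.72 (-1.13, SE 0.28) while Otx1 rose from 3.03 and 2.27 to 9.04 and 7.39 (1.34, SE 0.15). The Otx2 call was lost with edgeR (0.0921) and without any 1 library but Q111 replicate 2 (0.0162 to 0.117).

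Guidance cues and their receptors gave 16 falls and 5 rises of 44 tested (median -0.68), or 10 to 12 and 3 or 4 without any 1 library. Slit3, a secreted repellent, fell from 17.0 and 13.7 CPM to 0.149 and 0.156 (-3.82, SE 0.17), and Slit1 from 26.4 and 22.1 to 1.22 and 1.67 (-3.37, SE 0.35). Unc5a, Unc5b, Unc5c and Unc5d, receptors of netrins, all fell, whereas the netrins Ntn1 and Ntn4 rose. The calls of Unc5a and Ntn1 were lost except without Q20 replicate 2 (up to 0.198), that of Unc5a under quantile normalization (0.621) and that of Ntn1 with edgeR (0.0615). Ntn4 went from 34.4 and 44.8 CPM to 100.7 and 101.7 (1.34, SE 0.24), and Sema3c from 4.54 and 3.49 to 13.4 and 13.0 (1.51, SE 0.26).

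Ion channel and receptor genes changed gene by gene. Of 26 voltage-gated channels 10 fell and 1 rose (median -0.86; 6 or 7 falls without any 1 library), led by Cacna1e (-2.38) and Kcnh2, which fell from 15.6 and 14.0 CPM to 2.52 and 2.18 (-2.24, SE 0.19). Of 22 glutamate and GABA receptors 8 fell and 5 rose, and 5 of each passed without any 1 library. Both subunits of the GABA-B receptor fell, Gabbr1 from 237.8 and 219.0 CPM to 20.7 and 20.5 (-3.41, SE 0.47) and Gabbr2 from 41.6 and 38.8 to 1.58 and 1.42 (-4.04, SE 0.34). Gabra2, a subunit of the GABA-A receptor, rose from 2.19 and 2.67 CPM to 41.7 and 36.3 (3.54, SE 0.22, adjusted p = 2.22e-05).

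Splicing regulators matter here because the series asks how repeat length relates to splicing; the values are gene levels and hold no splice junctions. Of 57 tested, 23 rose and 5 fell (49.1%), and 47 had a positive change with a median of 0.48. Most rises were small: Srsf6, an SR protein, went from 125.2 and 91.9 CPM to 228.5 and 248.8 (1.15, SE 0.16, adjusted p = 0.00155), and Hnrnpu, a nuclear matrix ribonucleoprotein, from 713.7 and 875.3 to 1384 and 1470 (0.85, SE 0.15). Mbnl1, which binds CUG repeats and steers developmental splicing, rose from 62.7 and 69.7 CPM to 170.1 and 180.1 (1.39, SE 0.27, adjusted p = 0.00728), and its relative Mbnl3 from 0.795 and 0.804 to 5.86 and 5.08 (1.84, SE 0.18). The Mbnl1 call was lost without Q111 replicate 2 or Q20 replicate 1 (up to 0.0537). The falls were Khdrbs2, a STAR family regulator, from 4.97 and 5.47 CPM to 0.19 and 0.595 (-2.17, SE 0.31), the neuronal regulators Rbfox1, Rbfox3 and Celf4, and the RNA editing enzyme Adar. The calls of Celf4 and Adar were lost without any 1 library (Adar 0.103 to 0.179), and that of Celf4 also with edgeR (0.0927). Scaling to equal totals left 12 rises and 8 falls, and quantile normalization 13 and 7. Without any 1 library 5 to 10 rises and 3 falls passed, and WT replicate 2 stood above replicate 1 for 39 of the 57.

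Genes of huntingtin's partners showed no common direction, with 5 rises and 5 falls of 27 tested and a median of -0.03 that changed sign under other settings; 2 or 3 rises and 3 falls passed without any 1 library. Hip1, an adaptor of clathrin coats, rose from 303.6 and 308.7 CPM to 882.4 and 899.9 (1.54, SE 0.28, adjusted p = 0.00526), and Cltc, the clathrin heavy chain, from 799.7 and 964.9 to 1685 and 1810 (0.99, SE 0.13). Sh3gl3, an endophilin, fell from 54.9 and 44.3 CPM to 12.2 and 13.7 (-1.86, SE 0.21). Hap1 was at 53.2 and 51.4 against 30.4 and 34.2 CPM (adjusted p = 0.0825). Among 16 genes of mismatch repair and repeat instability, Pcna, described above, rose and Neil1, a base excision glycosylase, fell from 12.4 and 10.2 CPM to 6.85 and 5.51 (-0.78, SE 0.20, adjusted p = 0.0227; 0.0551 to 0.143 without 1 library). Msh3, a known modifier of somatic expansion, was at 62.1 and 63.5 CPM in Q20 and 60.5 and 64.1 in Q111 (-0.01, SE 0.15, adjusted p = 0.96). In the list of neurotrophins, their receptors and REST, 1 gene rose and 1 fell of 12; Rest itself had a log2 change of -0.04 (SE 0.29, adjusted p = 0.932).

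In lipid metabolism, 25 of 29 cholesterol genes had a positive change (median 0.81), 7 rose and 2 fell. Without any 1 library 1 to 3 rises and 1 fall passed, and scaling to equal totals gave 3 of each. Insig1, the sterol sensor partner, rose from 45.7 and 48.4 CPM to 193.3 and 187.6 (2.00, SE 0.21, adjusted p = 0.000312), and the synthesis enzyme Sqle from 87.9 and 96.6 to 185.3 and 191.8 (1.03, SE 0.31, adjusted p = 0.041). Both falls were exporters: Abca1 went from 431.9 and 423.7 CPM to 12.6 and 14.6 (-4.88, SE 1.02, adjusted p = 0.00986; 0.0514 to 0.0574 without 1 library), and Abcg1 from 3.75 and 3.54 to 0 in both libraries. Abca1 stood at 381.8 and 36.4 CPM in WT. Over the list, WT replicate 2 stood above WT replicate 1 for 24 of 29 genes (median log2 difference 0.63). KO replicate 2 stood above KO replicate 1 for 27 (0.97). The call of Sqle was lost without any 1 library (0.118 to 0.167) and under scaling to equal totals (0.0701).

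Few housekeeping genes passed. Of 45 nuclear genes of oxidative phosphorylation 1 rose and none fell, and of 47 cytosolic ribosomal protein genes 2 fell and none rose, both far under the 28.3% of all genes. The ribosomal median was -0.13. Both counts depended on the scaling: with quantile normalization 25 ribosomal genes fell (median -0.42) and with scaling to equal totals 19 did (-0.35), while the oxidative phosphorylation median moved from 0.10 to -0.18 and -0.12. Ribosomal genes have many processed copies in the genome, and how reads shared with copies were counted is not given in the sources used here.

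In the list of stress response genes, 6 of 26 tested rose, 3 fell and 17 did not pass. Among the rises were chaperones of the endoplasmic reticulum, Hspa5 from 429.3 and 460.9 CPM to 1188 and 1194 (1.42, SE 0.23, adjusted p = 0.00287) and Calr from 518.1 and 516.9 to 1512 and 1565 (1.57, SE 0.18). Hsp90b1, Pdia4, Pdia6 and the factor Xbp1 were the other rises. The 3 falls were Atf4, a translation-controlled stress factor, at 352.8 and 318.7 CPM in Q20 and 168.5 and 52.45 in Q111 (-1.82, SE 0.55, adjusted p = 0.0414), with Trib3 (-3.84, SE 1.07) and Atf3 (-2.28, SE 0.57). The calls of Trib3 and Atf3 were lost without any 1 library (0.0619 to 0.144), that of Atf4 except without Q111 replicate 1 (0.0131 to 0.214) and with edgeR (0.0628), and those of Pdia4 and Xbp1 without any 1 library (0.0518 to 0.137). The p53 targets held 5 rises and 5 falls of 25, with a median log2 change of 0.72. Between WT replicate 2 and replicate 1 the median of these genes was 0.48. Fewer rises and fewer falls passed without any 1 library. Plk2, a kinase induced by stress and synaptic activity, rose from 87.9 and 89.8 CPM to 516.1 and 558.3 (2.58, SE 0.70, adjusted p = 0.0278; 0.102 to 0.118 without 1 library), and Cdkn1a, the cell cycle inhibitor, was at 20.0 and 18.8 against 30.8 and 28.4 CPM (adjusted p = 0.271).

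Calcium entry genes gave 2 rises and 4 falls of 15 tested (2 and 2 or 3 without any 1 library). Stim2, a calcium sensor of the endoplasmic reticulum, rose from 71.9 and 76.9 CPM to 323.8 and 313.4 (2.08, SE 0.29, adjusted p = 0.00136), while its relative Stim1 was at 25.2 and 22.1 against 21.2 and 21.3 (adjusted p = 0.693). The calcium pump Atp2a2 rose from 310.6 and 301.6 to 531.3 and 574.3 CPM (0.85, SE 0.10). The release channels Itpr3 (-1.61, SE 0.19) and Itpr2 (-0.97, SE 0.20) fell. The Itpr2 call was lost without Q111 replicate 1 or Q20 replicate 1. Itpr1, another release channel, was at 63.8 and 62.1 CPM in Q20 and at 152.8 and 157.1 in Q111. Its change was upward and did not pass (1.29, SE 0.43, limma adjusted p = 0.0543).

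The side of WT on which each line lay was read from Q111 against WT, which shares the Q111 libraries with the comparison above and was not correlated with it. It called 2197 genes (16.6%), 1154 higher (8.74%) and 1043 lower (7.9%), and 34.1% of all genes had an unadjusted p under 0.05. For Pou5f1, Lin28a and Sall4 the log2 change against WT was -0.20, -0.21 and -0.09, none passing, with Q20 far above both. Col5a2 (2.02, adjusted p = 0.000762), Kdm5d (4.69), Igfbp3 (3.22) and Areg (4.31) were higher than in WT as well, and Col3a1 (-3.38) was lower, with WT at 24.0 and 21.8 CPM between the lines. Egfr did not pass against WT (-0.08, adjusted p = 0.905), at 1455 and 705.0 CPM in WT. Replication genes gave 6 rises and mitosis genes none. The count of calls varied with the libraries: without WT replicate 2, 5085 genes passed, without WT replicate 1, 1315, and without Q111 replicate 1 or 2, 558 and 554; with the Q111 and WT libraries alone, limma called 0 (2653 at an unadjusted p under 0.05).

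The same lines gave few or no calls before differentiation. In mESC, Q111 against Q20 called 0 of 13916 genes with limma, while 374 (2.69%) had an unadjusted p under 0.05, and edgeR called 0 with 345 at an unadjusted p. The replicate SD was larger there, 0.755 in Q20 and 0.774 in Q111, and same-numbered replicates deviated together (correlation of the replicate differences 0.536 across genes). With the replicate number as a block limma called 8 genes, though the labels do not say that the numbers pair samples. Among genes called higher in NPC and tested in mESC, 924 of 1510 (61.2%) were also higher in mESC, and among those called lower 1094 of 1856 (58.9%) were lower, where 53% of all genes had a positive change. The median mESC change of both sets was 0.06 and -0.06. Stim2 was at 19.5 and 27.3 CPM in Q20 mESC and at 20.8 and 28.7 in Q111, and Pcna at 391.0 and 437.4 against 422.5 and 414.0, so the NPC difference of these genes had no counterpart of its size before differentiation.

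Genes were also summed up by chromosome, as the median log2 deviation of a chromosome's genes from their median over the 12 libraries of the table. In NPC, chromosome 11 stood at 0.39 and 0.35 in Q111 and at 0.12 in both Q20 libraries. In mESC the values for chromosome 11 were 0.18 and 0.34 in Q111 and 0.19 and 0.31 in Q20. Chromosome 8 stood at 0.17 and 0.16 in NPC Q111 and at 0.07 and 0.04 in Q20, and chromosome 1 at -0.20 and -0.18 in Q111 and at -0.24 and -0.23 in Q20. Between the lines, the median log2 change was 0.16 over 708 genes of chromosome 8 and 0.18 over 1069 tested genes of chromosome 11. Other chromosomes came near these sizes, with 0.15 on chromosome 13, 0.14 on X, 0.13 on 16 and -0.12 on 7. Of the chromosome 11 genes 208 rose and 165 fell, where 12.2% of all tested genes rose and 16.1% fell. Igfbp3, Lpo and Egfr lie on chromosome 11 and changed by far more than its median. Against WT, the median log2 change of Q111 NPC was larger, at 0.43 for chromosome 11, 0.45 for chromosome 8 and -0.34 for chromosome 1. In this comparison with WT, the other autosomes and X lay between -0.10 and 0.11. The part of chromosome copy number in these values was not tested.

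**Figure D5:**
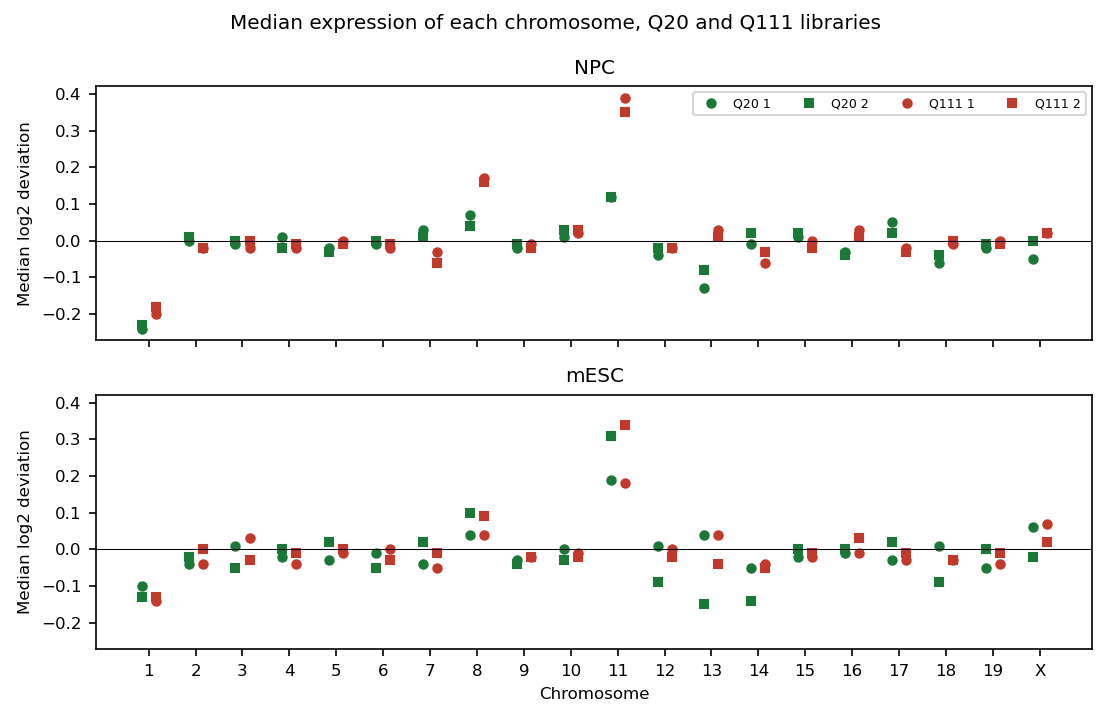
Median log2 deviation of the genes of each chromosome (mean of at least 5 CPM) from their median over the 12 libraries of NPC (top) and mESC (bottom), with the library's own median removed, for the Q20 (green) and Q111 (red) libraries; circles are replicate 1 and squares replicate 2. In NPC chromosome 11 lies at 0.39 and 0.35 in Q111 and at 0.12 in Q20, while chromosome 1 lies below 0 in all 4 libraries.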

How the data were processed

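Total RNA of cultured mouse cells was sequenced on an Illumina NextSeq 500 as paired-end reads of 75 bases, per the labels' protocols. The submitters' processing notes name CASAVA 1.8, STAR and GRCm38.p6, without their roles; which program counted reads, and whether by strand, is not given in the sources used here. The deposited table of each cell type is a normalised signal that the authors named CPM. Column totals differ, and 100% of values are whole multiples of 1 step per library (tolerance 0.01), which gave back the reads and their totals (48525333 to 118038952 in NPC). A count test had been set aside for values named CPM, so limma stayed the main test and edgeR on recovered reads was added after seeing the data.

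Genes with at least 1 CPM in at least 2 of the 12 NPC libraries were tested (13206 of 16024; 2818 left out) as log2(CPM + 1) with limma 3.58.1 (variance trend, 6 group means, two-sided) in R 4.3.3. Fold changes on this scale understate those of low genes. edgeR was version 4.0.16. A call is a Benjamini-Hochberg adjusted p under 0.05 over all tested genes. The scripts were tested on simulated data. There limma recovered 19% of 2-fold and 99% of 4-fold changes, and 3.28% of its calls were false. A gene that did not pass may thus still differ by about 2-fold. Positions come from GENCODE M21 (GRCm38), which held 99.82% of the genes, and promoters from RefSeq (GRCm38.p6), of which 32 of 40 replication and 35 of 40 mitosis genes had a window. Without a stated use of strand, genes that overlap others on the opposite strand are uncertain.

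Genes named are Htt, the 12 largest rises and falls among called genes (at least 5 CPM in the higher group, groups not overlapping, protein coding, at least 2 exons) and, per list, the 2 called members with the largest rise and fall; Emcn stands for a list with no call. Other genes named were chosen after their values were seen. The comparison and the 35 gene lists were chosen with earlier results of these data known. A list is described by counts and median, beside the same over all tested genes, without a test of its own. Alternatives were other filters, pseudocounts, scalings, libraries in the fit and each library left out, as the closing section gives. A few genes that the rule would name are not reported here.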

Additional observations from a re-analysis of the deposited data

Results flagged for a closer look

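Of the 116 named genes, 12 were tested in both cell types and had their Q111 libraries on opposite sides of Q20 in NPC and mESC. In each cell type, both Q111 libraries lay on one side of both Q20 libraries. In NPC such separation was seen for 78.2% of all tested genes, and most named genes were chosen by their NPC change. The share of all genes with opposite sides was not counted, so the 12 are a list and not a result about these genes. The difference between the cell types was not tested, since both tables were scaled separately, and none of the 12 passed the test in mESC. Given below is the NPC log2 change minus the mESC log2 change. The genes that were higher in Q111 NPC and lower in Q111 mESC were Igfbp3 (5.94), Col5a2 (5.54), Lyn (4.91), Kcnn4 (4.49), Ccnd1 (4.42), Gap43 (3.70), Plk2 (3.30), Lama4 (2.87), Egfr (2.49) and Hip1 (2.11). Nxf3 (-6.93) and Lama1 (-4.23) were lower in Q111 NPC and higher in Q111 mESC. Igfbp3 stood at 156 and 91.8 CPM in Q20 mESC and at 39.4 and 51 in Q111 mESC, where its log2 change was -1.40. Nxf3 stood at 19.8 and 14.9 CPM in Q20 mESC and at 37.3 and 36.8 in Q111 mESC (1.07), and Lama1 at 73.7 and 113 against 168 and 182 (0.93). For most of the others the mESC change was small beside that in NPC, such as -0.24 for Col5a2 and -0.40 for Ccnd1.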

How the results depend on the processing

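The 3743 genes called between Q111 and Q20 (1617 higher, 2126 lower) became 6767 (3466 and 3301) with the 8 knock-in libraries alone, 6712 (3435 and 3277) with the 4 libraries alone, and 2353 (1262 and 1091) with a mean of at least 5 CPM. Scaling to equal totals gave 908 higher and 2820 lower. Leaving out 1 library gave 1569 to 1873 genes, 468 to 619 higher and 1090 to 1254 lower, with the lone library assumed to vary like the other groups. edgeR called 3436, of which 3302 were shared. Q111 against WT gave 0 with both groups alone, and without 1 library 554 to 5085. In mESC 0 became 1 with no filter, 1 with a pseudocount of 0.1, 8 with the replicate block, and 0 to 2 without 1 library. Of 114 named genes called, 71 were called under every alternative run, 99 under every one that keeps all 4 libraries, and 43 were lost without at least 1 of the 4 (32 without each). Emcn, the member with the highest mean over the 12 NPC libraries of a list without calls (-0.40, adjusted p 0.519), reversed to 0.15 under quantile normalization. The cause of these changes was not tested. Replicate numbers did not pair the NPC libraries (correlation of replicate differences -0.049 between Q20 and Q111; 0.536 in mESC); the replicate block gave 3979 genes. With 2 libraries per group and lines told apart by allele only, nothing here separates repeat length from line, and near 0 reads a fold has no firm value.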

Other observations

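Markers of cell types outside the neural lineage were low in both lines. Of 11 tested neural crest and Schwann cell markers 4 fell and 1 rose, with a median log2 change of -1.30. The median depended on the setting, at -0.37 with a pseudocount of 5 and -0.91 over 12 genes without a filter. With a mean of at least 5 CPM 1 of 5 fell. Ngfr, the low-affinity neurotrophin receptor, fell from 3.47 and 2.43 CPM in Q20 to 0.271 and 0.156 in Q111 (-1.69, SE 0.21, limma adjusted p = 0.000847), and Pax3, a factor of dorsal neural tube and crest, from 3.77 and 2.27 to 0.135 and 0.184 (-1.77, SE 0.27). Erbb3, the neuregulin receptor of Schwann cells, fell from 4.40 and 4.67 to 0.921 and 1.11 CPM (-1.46, SE 0.16). S100b fell from 11.7 and 9.27 CPM to 3.09 and 2.85 (limma adjusted p = 0.0478), a call lost without any 1 of the 4 libraries (0.12 to 0.195) and with edgeR (0.072). Tfap2a, an early crest factor, rose from 1.317 and 1.801 CPM to 3.03 and 3.56 (0.75, SE 0.13). In both lines these 5 genes were at a low level. Their Q111 libraries did not overlap those of Q20, as was so for all 3743 called genes and for 78.2% of all tested genes.

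Of 5 tested endoderm and epithelium markers 3 fell. They were Epcam and Cdh1, which stem cells also express, and Krt8, a simple epithelial keratin. Krt8 went from 3.13 and 2.42 CPM to 0.23 and 0.113 (-1.68, SE 0.12). In NPC, Epcam reached the filter's 1 CPM in the Q20 libraries alone, and Cdh1 there and in WT replicate 1 (1.35). Epcam and Cdh1 thus passed the filter through Q20. Without a filter 5 of 8 fell (median -0.20), and with a mean of at least 5 CPM 1 was tested and did not pass. The 3 tested endothelial and blood markers did not pass; Emcn, a sialomucin of endothelium, stood at 1.81 CPM in each library of Q20, against 0.893 and 1.40 in Q111 (-0.40, SE 0.44, limma adjusted p = 0.519). The summed level of the endothelial and blood list was 6.65 and 6.34 CPM in Q20 and 3.00 and 4.32 in Q111.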
